A study of Mus musculus with 14 samples.

Results

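The genes that make, export and sense leukotrienes were followed through the culture of mouse mast cells: Alox5, Alox5ap, Ltc4s, Lta4h, Abcc1, Ltb4r1, Ltb4r2, Cysltr1 and Cysltr2. They were chosen by name, as the probes whose gene name in the scanner files is 1 of these 9, which gave 14 of the 41174 probes on the array. Of these, 11 probes of 8 genes were tested, among 15846 genes in all. Both Cysltr1 probes were too dim, and 1 Alox5 probe lacked a value on 1 array. RNA was measured on single-colour Agilent arrays in bone marrow-derived mast cells (BMMCs), immature mast cells grown from mouse bone marrow with IL-3 for 4 to 6 weeks, and in such cells after 96 h on a layer of Swiss 3T3 cells, a mouse fibroblast line, with 100 ng/ml stem cell factor. The study asked, per its title, how loss of group III phospholipase A2 affects the maturation that fibroblasts direct in mast cells. Wild-type BMMCs filled 3 arrays, BMMCs labelled Pla2g3 knockout 4, wild-type cocultured cells 4 and cocultured cells labelled knockout 3. By the labels, over 97% of BMMCs and over 99% of the cells recovered from coculture carried Kit and the high-affinity IgE receptor. Every sample carried the strain label C57BL/6.129Sv-N3. Nothing in the labels tells if replicates were separate cultures or mice. The p-values therefore describe the spread among these samples, which may be technical. Stem cell factor was given in coculture only, so its effect cannot be told apart from that of the fibroblasts.

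Leukotrienes are lipid signals that mast cells and other leukocytes make from arachidonic acid. The nuclear membrane protein FLAP (Alox5ap) presents the acid to 5-lipoxygenase (Alox5), which forms leukotriene A4. Leukotriene A4 hydrolase (Lta4h) turns this into leukotriene B4, while leukotriene C4 synthase (Ltc4s) joins it to glutathione to give leukotriene C4, the first of the cysteinyl leukotrienes, which the transporter MRP1 (Abcc1) carries out of the cell. Leukotriene B4 binds the receptors BLT1 (Ltb4r1) and BLT2 (Ltb4r2), and the cysteinyl leukotrienes bind CysLT1 (Cysltr1) and CysLT2 (Cysltr2). Mast cells are a main source of cysteinyl leukotrienes in allergic reactions.

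The values rest on short stretches of each transcript, and probes of Ltc4s, Ltb4r1, Ltb4r2 and Abcc1 are shown, 5′ to 3′ and read from the scanner files. The Ltc4s probe lies on the minus strand of chr11:50050522-50050581 (mm9), the Ltb4r1 probe on the plus strand of chr14:56387175-56387234 and the Ltb4r2 probe on the plus strand of chr14:56381569-56381628. Of the Ltb4r1 probe, the first 30 of 60 bases are given.
Ltc4s: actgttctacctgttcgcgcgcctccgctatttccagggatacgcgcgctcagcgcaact
Ltb4r1: cctgacccacttctgtacctggaggagaac
Ltb4r2: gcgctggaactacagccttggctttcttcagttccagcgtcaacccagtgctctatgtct
Abcc1 was measured by 3 probes on the plus strand of chromosome 16, at chr16:14474551-14474610, chr16:14473598-14473657 and chr16:14473557-14473616. The last 2 of these share 19 bases, given in capitals, so they are not independent measurements.
A_52_P491508: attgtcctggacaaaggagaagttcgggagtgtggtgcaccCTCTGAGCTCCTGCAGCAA
A_52_P491507: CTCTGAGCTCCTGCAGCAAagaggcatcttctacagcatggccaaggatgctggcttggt

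Promoters of 5 of the 9 genes (Alox5, Ltc4s, Lta4h, Ltb4r1 and Cysltr2) were found in the RefSeq table (GRCm38.p6). The 250 bases before the start are shown for Ltc4s, minus strand of chr11:50238533-50238782, and Ltb4r1, plus strand of chr14:55765712-55765961 because both genes fell in wild-type coculture and are in that table. Capitals mark GATA, the core letters bound by GATA factors, and GGGCGG, the GC box, each searched on both strands.
Ltc4s: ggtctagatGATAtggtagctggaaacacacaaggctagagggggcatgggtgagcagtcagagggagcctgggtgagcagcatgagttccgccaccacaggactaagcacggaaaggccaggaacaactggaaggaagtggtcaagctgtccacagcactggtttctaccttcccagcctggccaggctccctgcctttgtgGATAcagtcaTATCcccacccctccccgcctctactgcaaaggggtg
Ltb4r1: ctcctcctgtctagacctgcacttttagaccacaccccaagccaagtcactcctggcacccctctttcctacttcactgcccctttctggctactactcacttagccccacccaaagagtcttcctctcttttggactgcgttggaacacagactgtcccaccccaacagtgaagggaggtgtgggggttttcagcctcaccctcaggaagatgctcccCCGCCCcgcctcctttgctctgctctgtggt
GATA occurred 3 times before Ltc4s and 0 times before Ltb4r1, and 53.6% of all 32851 RefSeq windows of this length hold it. The GC box occurred 0 times before Ltc4s and 1 time before Ltb4r1, and 32.7% of all windows hold it. These matches describe the letters only.

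Between 42.96% and 55.91% of probes were well above background on each array, and precision is limited by how many arrays there are. A level is the log2 signal minus that of the array's 75th percentile, so that 0 is that percentile. The 14 arrays lay on 4 slides, and slide 4, scanned on another date, held 1 BMMC array labelled knockout and 1 cocultured array of each genotype label. On the second principal component of all genes tested, wild-type cocultured 3 (slide 4) stood at -91.2, beside knockout cocultured 1 and 2 at -79.3 and -76.8. Knockout cocultured 3 (slide 4) stood at 25.8, beside the other wild-type cocultured arrays at 23.4 to 66.8. Results that rest on this slide 4 pair are therefore given with and without it. The Pla2g3 probe did not fall with the knockout label. Among BMMCs it read -4.63 to -2.91 for wild-type and -1.92 to -1.27 for labelled knockout arrays, without overlap, as for 3.84% of all genes. After coculture it read -4.23 to -2.13 and -3.13 to -1.70. The probe was not well above background on wild-type BMMC 1 and 2 or on wild-type cocultured 1 and 3, the last being on slide 4. Whether the probe lies in the deleted part is not given in the sources used here, so it does not check the labels; on slide 4 it read -4.07 on the wild-type and -1.88 on the knockout cocultured array. All 9 mast cell markers were well above background on every array. The summed linear signal of 12 fibroblast markers ran from 0.35 to 2.43 in BMMCs and, after coculture, from 14.9 to 402 for wild-type and 13.5 to 56.9 for labelled knockout arrays, with Col1a1, Col3a1 and Dcn not well above background on any BMMC array. In bulk RNA, fewer cells of a type and less RNA per cell cannot be told apart.

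Coculture raised the exporter of leukotriene C4 and lowered both leukotriene B4 receptors under both genotype labels. In wild-type cells 4 of the 8 tested genes passed limma's test at an adjusted p under 0.05: Abcc1 rose, and Ltc4s, Ltb4r1 and Ltb4r2 fell, where 12.8% of all genes passed, 6.48% higher and 6.34% lower. In cells labelled knockout Abcc1 again rose, and Ltb4r1, Ltb4r2 and Cysltr2 fell, 4 of 8 against 14.7% of all genes, 8.56% higher and 6.09% lower. Averaged over both labels, 7 cocultured against 7 BMMC arrays, 1 gene rose and 5 fell, 6 of 8 against 28.9% of all genes, 15.4% higher and 13.5% lower. The median difference of the 8 genes was -1.12 in wild-type cells and -0.50 in cells labelled knockout, where the median over all genes was -0.01 and 0.10. The genes were chosen by name and these shares are a description of them. Over all genes 2032 passed in wild-type cells and 2322 in cells labelled knockout. Without the slide 4 pair these counts were 3657 and 4957 of 15846, and with array weights 4949 and 7288. Calls gained with these settings are to be read beside that general gain. Fibroblast markers rose in the same comparisons, and their part in the differences was not tested.

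**Figure D1:**
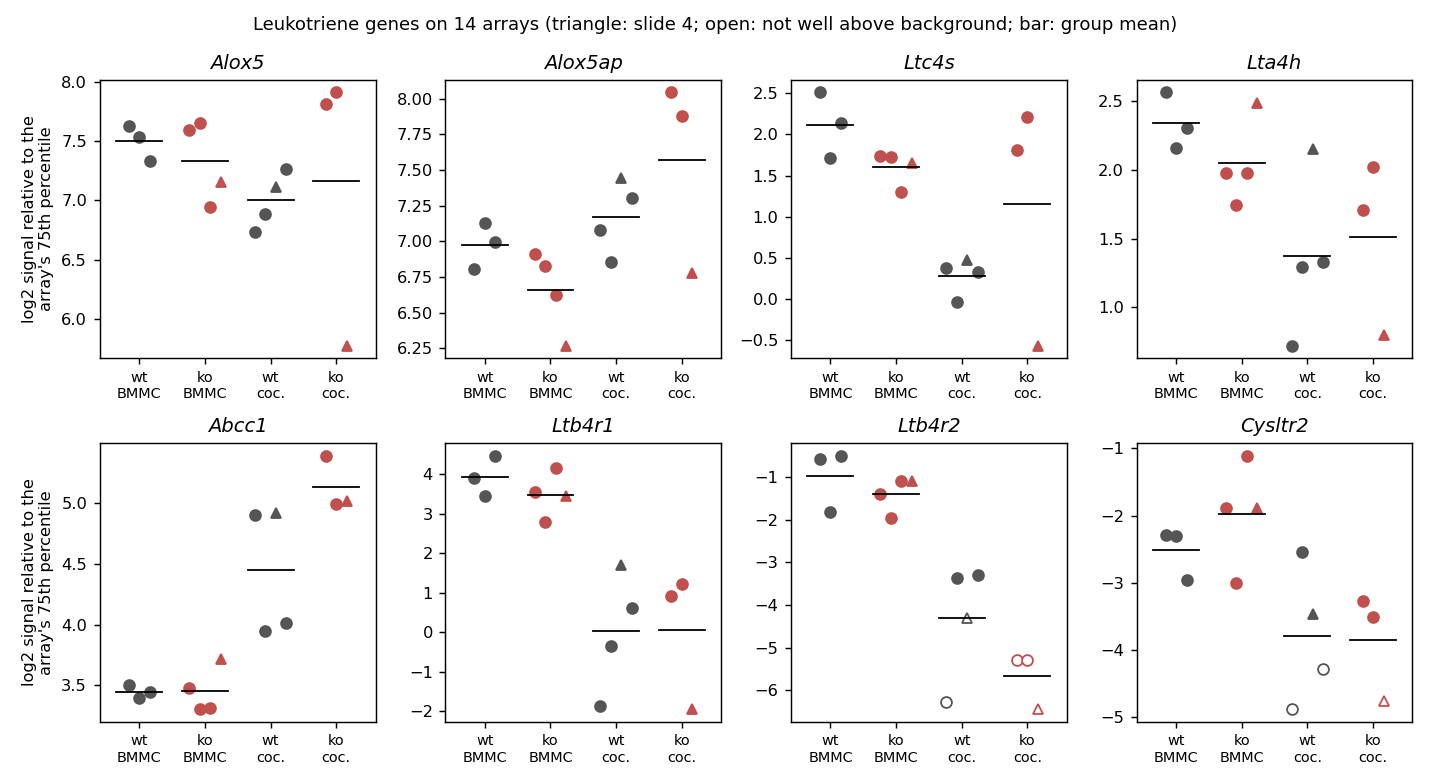
Level of each of the 8 tested genes on the 14 arrays, as log2 signal relative to the array's 75th percentile, by group (wt, wild-type; ko, labelled knockout; coc., cocultured). Triangles are arrays of slide 4, open symbols were not well above background, and bars are group means. Ltb4r1 and Ltb4r2 lie lower on every cocultured array than on any BMMC array, and Abcc1 higher. Of all genes 12.3% were so divided, in either direction.

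**Figure D2:**
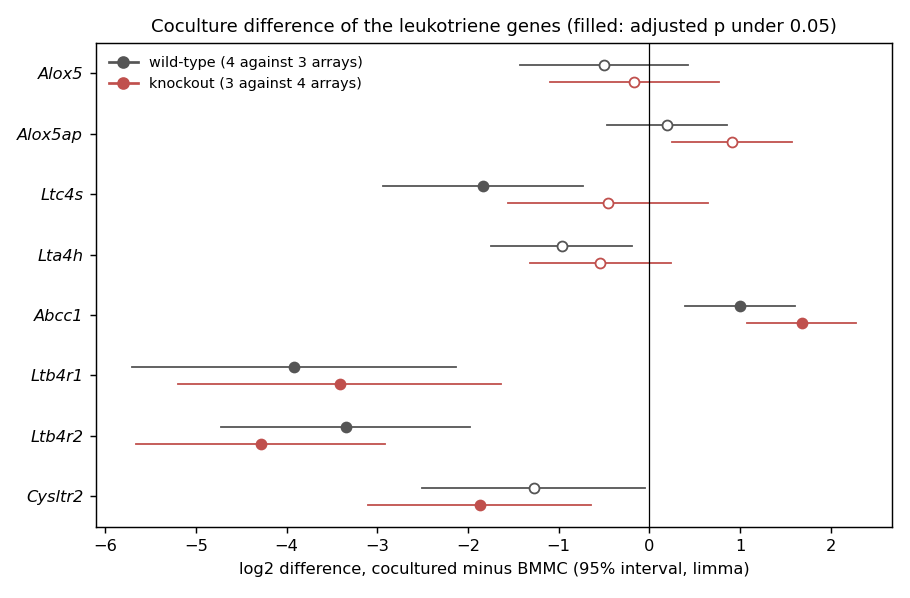
Cocultured minus BMMC difference of each gene on the log2 scale, with 95% intervals from limma, in wild-type cells and in cells labelled knockout. Filled points passed at an adjusted p under 0.05; the intervals of Alox5 include 0 under both labels, and those of Abcc1, Ltb4r1 and Ltb4r2 do not.

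Alox5, the 5-lipoxygenase itself, was bright throughout and passed in no comparison of culture states. Its main probe (chr6:116360366-116360425, minus strand) read 7.63, 7.54 and 7.33 in wild-type BMMCs (7.50 ± 0.15, SD, n = 3). Wild-type cocultured cells read 6.73, 6.88, 7.11 and 7.27 (7.0 ± 0.24, SD, n = 4). Every wild-type cocultured array thus lay below every wild-type BMMC array, as 25.6% of all genes did in either direction, yet the difference of -0.50 (SE 0.43, adjusted p = 0.526) did not pass. BMMCs labelled knockout read 7.59, 7.65, 6.94 and 7.15 (7.33 ± 0.34, SD, n = 4), and cocultured cells labelled knockout 7.81, 7.91 and 5.77 (7.17 ± 1.21, SD, n = 3). The slide 4 array is the low one of the last group, and the difference of -0.17 (SE 0.43, adjusted p = 0.84) turned to 0.53 (adjusted p = 0.13) without the slide 4 pair. A second probe (chr6:116362506-116362565) gave -0.30 and -0.21 in wild-type and labelled knockout cells, and its fit passed in neither. The remaining probe, which shares part of its position with the main one, had no usable spot on knockout cocultured 2 and was not tested.

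Alox5ap, which hands arachidonic acid to 5-lipoxygenase, stood a little higher after coculture in cells labelled knockout without passing the test. Wild-type BMMCs read 6.80, 7.13 and 6.99 (6.97 ± 0.17, SD, n = 3) and wild-type cocultured cells 7.08, 6.85, 7.44 and 7.30 (7.17 ± 0.26, SD, n = 4). These groups overlap, with a difference of 0.19 (SE 0.31, adjusted p = 0.758). BMMCs labelled knockout read 6.91, 6.83, 6.62 and 6.27 (6.66 ± 0.29, SD, n = 4). Their cocultured counterparts read 8.04, 7.88 and 6.78 (7.57 ± 0.69, SD, n = 3), the 2 arrays outside slide 4 being the highest of all 14. The difference was 0.91 (SE 0.31, adjusted p = 0.0636), and 1.30 (adjusted p = 0.00226) without the slide 4 pair, where 4957 of 15846 genes passed. This difference passed also with slide as a random block (adjusted p = 0.0461) and with an intensity trend and robust variance (0.0436). Averaged over labels the difference was 0.55 (SE 0.22, adjusted p = 0.0731), which passed with slide as a fixed or random block (0.0442 and 0.0448) and without the slide 4 pair (0.00563). These settings called 4820, 5108 and 5832 of 15846 genes on average. The probe lies on the plus strand of chr5:150099347-150099406.

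Lta4h, the enzyme of the leukotriene B4 branch, passed only when both labels were averaged. Its level was 2.56, 2.16 and 2.30 in wild-type BMMCs (2.34 ± 0.21, SD, n = 3) and 0.72, 1.30, 2.15 and 1.33 in wild-type cocultured cells (1.37 ± 0.59, SD, n = 4). The groups do not overlap, as for 25.6% of all genes in wild-type cells, although wild-type cocultured 3 of slide 4 nearly reached the lowest BMMC array. The difference of -0.97 (SE 0.36) had an adjusted p of 0.1. It was -1.23 without wild-type cocultured 3 (adjusted p = 0.0268) and without the slide 4 pair (0.00536), and it passed also with array weights (0.00285). These settings called 2369, 3657 and 4949 of all 15846 genes. BMMCs labelled knockout read 1.98, 1.75, 1.98 and 2.49 (2.05 ± 0.31, SD, n = 4), and after coculture 1.71, 2.02 and 0.80 (1.51 ± 0.63, SD, n = 3), which overlap. That difference was -0.54 (SE 0.36, adjusted p = 0.345). Averaged over labels Lta4h fell by 0.75 (SE 0.25, adjusted p = 0.0407), a call that ended with 16 of 31 alternative settings. Among them was the omission of any 1 of 3 wild-type BMMC arrays, of BMMC arrays 1, 3 and 4 labelled knockout, of wild-type cocultured 1, 2 and 4, and of knockout cocultured 1 and 3 (adjusted p 0.0563 to 0.0922). The other settings were median scaling (0.0902), the authors' normalized values (0.0697), no filter on dim probes (0.0826), slide as a fixed block (0.0615) and the replicate block (0.0829). The probe spans chr10:92937304-92937701 on the plus strand, a stretch longer than its 60 bases.

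Ltc4s, the enzyme of the cysteinyl branch, fell in wild-type cells and did not pass in cells labelled knockout. Wild-type BMMCs read 2.51, 1.72 and 2.13 (2.12 ± 0.40, SD, n = 3). All 4 wild-type cocultured arrays were lower, a lack of overlap that 25.6% of all genes showed in either direction, at 0.38, -0.04, 0.47 and 0.32 (0.29 ± 0.22, SD, n = 4). The fall was 1.83 on the log2 scale (difference -1.83, SE 0.51, adjusted p = 0.0325), and it was -1.33 within slide 2 and -1.99 within slide 3, the slides that held both groups. BMMCs labelled knockout read 1.74, 1.73, 1.30 and 1.65 (1.61 ± 0.21, SD, n = 4). After coculture they read 1.81, 2.22 and -0.57 (1.16 ± 1.505, SD, n = 3), so that 2 arrays lay above every BMMC array of that label and the slide 4 array below. The difference was -0.45 (SE 0.51, adjusted p = 0.602) and turned to 0.41 (adjusted p = 0.258) without the slide 4 pair. The wild-type call ended without wild-type BMMC 1, 2 or 3 (adjusted p = 0.12, 0.0595 and 0.0936) and without wild-type cocultured 1, 2 or 4 (0.0583, 0.0749 and 0.0591). Without the slide 4 pair it was -1.90 (adjusted p = 0.000422), and the call also ended with the authors' normalized values (0.145), slide as a fixed block (0.0943), the replicate block (0.0617), no filter on dim probes (0.0565) and median scaling (0.0501).

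Averaged over labels Ltc4s fell by 1.14 (SE 0.36, adjusted p = 0.0304). That call ended without wild-type BMMC 1 or 3, BMMC 1 or 2 labelled knockout, or wild-type cocultured 2, with an adjusted p of 0.0525 to 0.0737. It ended too with median scaling (0.0598), the authors' normalized values (0.0643), no filter on dim probes (0.0524) and slide as a fixed block (0.0582).

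Abcc1, the exporter of leukotriene C4, was the only gene of the set that rose. Its brightest probe read 3.50, 3.40 and 3.44 in wild-type BMMCs (3.45 ± 0.05, SD, n = 3) and 4.91, 3.95, 4.92 and 4.01 in wild-type cocultured cells (4.45 ± 0.54, SD, n = 4). In BMMCs labelled knockout it read 3.48, 3.31, 3.32 and 3.72 (3.45 ± 0.19, SD, n = 4), and after coculture 5.39, 4.99 and 5.02 (5.13 ± 0.22, SD, n = 3). No cocultured array overlapped a BMMC array under either label, as held over all 14 arrays for 12.3% of genes. The rise was 1.0 (SE 0.28, adjusted p = 0.033) in wild-type cells, 1.68 (SE 0.28, adjusted p = 0.00219) in cells labelled knockout and 1.34 (SE 0.20, adjusted p = 0.000317) on average. The 2 overlapping probes gave 1.42 and 1.33 in wild-type cells (adjusted p = 0.0297 and 0.0373 over 23243 probes) and 1.82 each in cells labelled knockout (adjusted p = 0.00883 and 0.00831). On the slides that held both groups, the difference was 1.51 and 0.54 in wild-type cells and 1.92, 1.69 and 1.30 in cells labelled knockout. The wild-type call ended without wild-type BMMC 1, 2 or 3 (adjusted p = 0.0859, 0.107 and 0.0962) and without wild-type cocultured 1 or 3 (0.0788 and 0.0567), while it was 0.84 (adjusted p = 0.0401) without the slide 4 pair. It ended too with median scaling (0.271), only the groups compared (0.113), no filter on dim probes (0.0821), normexp (0.0653) and the replicate block (0.0617). The call in cells labelled knockout ended with normexp (0.072) and the authors' normalized values (0.0536). On wild-type cocultured arrays 1 to 4 the summed fibroblast signal was 111, 402, 14.9 and 127, and on those labelled knockout 13.5, 24 and 56.9. Its part in the rise of Abcc1 was not tested.

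Ltb4r1, the high-affinity receptor of leukotriene B4, fell under both labels. Wild-type BMMCs read 3.90, 3.45 and 4.47 (3.94 ± 0.51, SD, n = 3), and after coculture -1.87, -0.35, 1.70 and 0.61 (0.02 ± 1.51, SD, n = 4). BMMCs labelled knockout read 3.56, 2.79, 4.15 and 3.44 (3.48 ± 0.56, SD, n = 4), and after coculture 0.93, 1.23 and -1.95 (0.07 ± 1.75, SD, n = 3). Every cocultured array was below every BMMC array, a lack of overlap that 12.3% of all genes showed in either direction. The cocultured arrays spread over more than 3 log2 units and all were still well above background. The difference was -3.92 (SE 0.83, adjusted p = 0.00788) in wild-type cells and -3.42 (SE 0.83, adjusted p = 0.0167) in cells labelled knockout. Averaged over labels it was -3.67 (SE 0.58, adjusted p = 0.000547), which passed with all 31 alternative settings. With the authors' normalized values the calls ended under each label (adjusted p = 0.0595 and 0.0879), and with the replicate block that in cells labelled knockout (0.0638). Within slides the fall held throughout, from -1.56 on slide 2 to -5.39 on slide 4 in cells labelled knockout, and at -5.32 and -4.34 in wild-type cells. Without the slide 4 pair the 2 differences were -4.48 (adjusted p = 0.000357) and -2.41 (adjusted p = 0.012).

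Ltb4r2, the low-affinity receptor of leukotriene B4, lies next to Ltb4r1 on chromosome 14 and fell as well. Wild-type BMMCs read -0.58, -1.83 and -0.50 (-0.97 ± 0.75, SD, n = 3), and after coculture -6.28, -3.37, -4.31 and -3.31 (-4.32 ± 1.39, SD, n = 4), with 2 of the 4 arrays well above background. BMMCs labelled knockout read -1.40, -1.97, -1.09 and -1.08 (-1.39 ± 0.41, SD, n = 4). After coculture they read -5.29, -5.29 and -6.44 (-5.67 ± 0.67, SD, n = 3), not well above background on any of the 3 arrays. The difference was -3.35 (SE 0.64, adjusted p = 0.00434) in wild-type cells, a size not fully measured since 2 of the 4 cocultured arrays were at background. With the dimmest measurable signal of each array in place of lower readings, the wild-type cocultured mean was -3.68. In cells labelled knockout the difference of the readings was -4.29 (adjusted p = 0.00113), with every cocultured reading at background, so its size was not measured. With the dimmest measurable signal of each array as the level after coculture, Ltb4r2 was 6.13-fold lower, a value that was not tested. With normexp background correction, which adds an offset of 50 to the signals, the difference shrank to -0.97 (adjusted p = 0.0601) and -0.26 (adjusted p = 0.561), and it passed with the other 30 settings that gave a value.

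Cysltr2, a receptor of cysteinyl leukotrienes, was dim (chr14:73429010-73429069, minus strand) and fell in cells labelled knockout. Those BMMCs read -1.88, -3.01, -1.11 and -1.89 (-1.97 ± 0.78, SD, n = 4), and after coculture -3.27, -3.51 and -4.75 (-3.85 ± 0.80, SD, n = 3). The groups do not overlap, as for 28.5% of all genes in cells labelled knockout, and the difference was -1.87 (SE 0.57, adjusted p = 0.0431). Wild-type BMMCs read -2.28, -2.30 and -2.96 (-2.51 ± 0.39, SD, n = 3) and wild-type cocultured cells -4.88, -2.54, -3.46 and -4.29 (-3.79 ± 1.02, SD, n = 4), which overlap at 1 array. That difference of -1.28 (SE 0.57, adjusted p = 0.172) did not pass, and averaged over labels Cysltr2 fell by 1.57 (SE 0.40, adjusted p = 0.0107). The call in cells labelled knockout ended in 19 of 31 settings, without any 1 wild-type BMMC array (adjusted p 0.0542 to 0.0583), without BMMC 1, 3 or 4 labelled knockout (0.0904, 0.108 and 0.08), without wild-type cocultured 4 (0.0509) and without knockout cocultured 1, 2 or 3 (0.0676, 0.0753 and 0.116). Without the slide 4 pair it was -1.42 (adjusted p = 0.109), and the adjusted p was 0.102 with the replicate block, 0.077 with slide as a fixed block, 0.0739 with quantile normalization, 0.0692 with median scaling, 0.0778 with no filter and 0.055 with only the groups compared. With normexp the difference was -0.03 in those cells and -0.22 on average (adjusted p = 0.957 and 0.56). After coculture Cysltr2 was well above background on 2 of 4 wild-type arrays and 2 of 3 labelled knockout.

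Cysltr1, the other receptor of cysteinyl leukotrienes, was not well above background on any of the 14 arrays with either of its 2 probes on chromosome X (chrX:103773217-103773276 and chrX:103772339-103772398, minus strand). Its readings lay between -6.80 and -3.78 and have no order among themselves.

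Genotype labels were then compared before and after coculture, the question in the study's title. In BMMCs 0 of the 8 genes and 0 of all 15846 genes (0% of genes) passed limma's test, with 170 genes at an unadjusted p under 0.05. Knockout minus wild-type differences of the 8 genes ran from -0.51 for Ltc4s to 0.54 for Cysltr2, and the 2 groups overlap for each of the 8, whereas 3.84% of all genes did not overlap. In Alox5, Alox5ap, Ltc4s, Lta4h, Ltb4r1 and Ltb4r2 the BMMCs labelled knockout had the lower mean (with the authors' normalized values, which put the median of all genes at 0.34, Alox5, Alox5ap, Lta4h and Ltb4r1 turned), and in Abcc1 the means were 3.45 in both. The difference of Ltb4r1 was -0.46 (95% interval -2.24 to 1.33) and that of Alox5 -0.17 (-1.10 to 0.77). Same-numbered BMMC arrays of the labels lay together on slides 1 to 3, while BMMC 4 labelled knockout had no partner. Within these 3 pairs Ltb4r1 differed by -0.34, -0.67 and -0.32, Lta4h by -0.59, -0.41 and -0.32 and Ltb4r2 by -0.82, -0.14 and -0.59. In each pair these genes were thus lower in the array labelled knockout than in its wild-type partner. The brightest Abcc1 probe differed by -0.026, -0.094 and -0.12, whereas its other probes turned sign between pairs, as did Alox5, Alox5ap, Ltc4s and Cysltr2. With the pairs as a replicate block the differences were -0.44 for Ltb4r1, -0.44 for Lta4h and -0.52 for Ltb4r2, all with an adjusted p of 1.

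After coculture 0 of the 8 genes and 0% of all genes passed with all 7 arrays, with 609 genes at an unadjusted p under 0.05. By the probe used for each gene, Abcc1 was the 1 gene without overlap between the labels, its highest wild-type array being at 4.92 and its lowest knockout array at 4.99, as for 1.76% of all genes. Both other Abcc1 probes overlapped, with differences of 0.67 and 0.62 (adjusted p = 0.843 for each). The brightest probe differed by 0.69 (SE 0.28, adjusted p = 0.8), and the other genes apart from Ltb4r2 ran from -0.05 for Cysltr2 to 0.87 for Ltc4s. Ltb4r2 was well above background on 2 of 4 wild-type and 0 of 3 labelled knockout arrays, so the size of its difference was not measured. Within slides the signs of most genes turned. Ltc4s was higher in the array labelled knockout by 1.83 on slide 2 and lower by 1.04 on slide 4 (difference -1.04). Alox5 stood at 1.18 and -1.34, Alox5ap at 0.80 and -0.66, Lta4h at 1.30 and -1.35 and Ltb4r1 at 3.09 and -3.65. Cysltr2 stood at 1.37 and -1.30, but 1 of the 2 readings on each slide was not well above background. The readings of Ltb4r2 on these slides were all at background and give no sign. The brightest Abcc1 probe stood at 0.08 on slide 2 and 0.10 on slide 4, and its other probes turned, at -0.16 and 0.28 and at -0.070 and 0.33. Each value is from 1 array against 1.

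**Figure D3:**
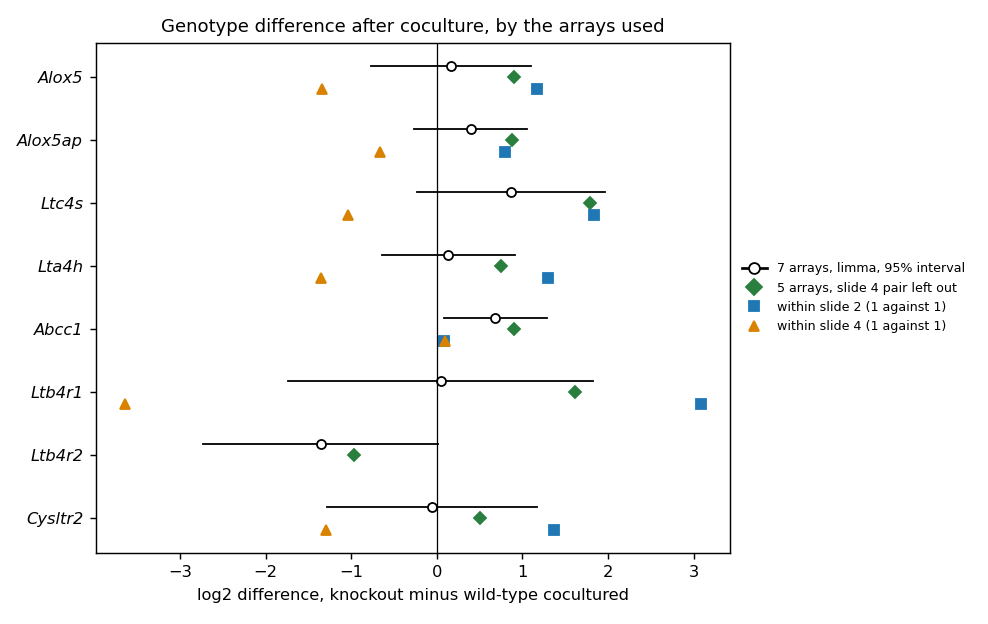
Knockout minus wild-type difference among cocultured cells on the log2 scale for each gene: all 7 arrays with 95% intervals from limma (open circles), the 5 arrays left without the slide 4 pair (diamonds), and single arrays within slide 2 (squares) and within slide 4 (triangles). Ltb4r2 has no square or triangle, since those readings were at background; in 6 of the other 7 genes they lie on opposite sides of 0, for Ltc4s at 1.83 and -1.04.

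Without the slide 4 pair, 4 of the 8 genes passed between cocultured cells of the 2 labels, where 3955 of 15846 genes (25%) passed, and each was higher in the cells labelled knockout. This omission was made with the position of those arrays known, and it leaves 2 arrays labelled knockout against 3. Ltc4s differed by 1.79 (SE 0.27, adjusted p = 0.00244), the readings being 1.81 and 2.22 against 0.38, -0.04 and 0.32. Alox5ap differed by 0.88 (SE 0.24, adjusted p = 0.0233), Alox5 by 0.90 (SE 0.26, adjusted p = 0.03) and the brightest Abcc1 probe by 0.90 (SE 0.29, adjusted p = 0.0456). Lta4h at 0.75 (adjusted p = 0.0704), Ltb4r1 at 1.61 (adjusted p = 0.0825), Cysltr2 at 0.51 (adjusted p = 0.588) and Ltb4r2 (adjusted p = 0.384) did not pass. The summed fibroblast signal divided these arrays in the same way: it was 13.5 and 24 on the 2 arrays labelled knockout and 111, 402 and 127 on the 3 wild-type arrays, and on slide 4 it was 56.9 and 14.9. Its part in the differences was not tested.

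The response to coculture itself was compared between labels by the interaction, for which 0 of the 8 genes and 0% of all genes passed, with 125 genes at an unadjusted p under 0.05. Ltc4s had an interaction of 1.38 (SE 0.72, 95% interval -0.17 to 2.94, adjusted p = 0.995), a smaller fall in the cells labelled knockout that was not told apart from the spread. Without the slide 4 pair it was 2.31 (SE 0.35, adjusted p = 0.00761), and that of Alox5ap 1.20 (SE 0.31, adjusted p = 0.0347), with 1923 of 15846 genes (12.1%) passing. For Ltb4r1 it was 0.50 (95% interval -2.02 to 3.03) with all arrays and 2.07 (adjusted p = 0.118) without the pair. That of Abcc1 was 0.68 (95% interval -0.17 to 1.53).

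Of 38 other genes of the pathway, all on the array, 21 were tested. In wild-type cells 4 rose, 0 fell and 17 did not pass, in cells labelled knockout the counts were also 4, 0 and 17, and on average 6 rose, 1 fell and 14 did not pass. Over all genes 12.8%, 14.7% and 28.9% passed, so the count of 7 of 21 on average lies near the share of all genes. The median difference over the 21 genes was 0.55, 0.72 and 0.59 in these 3 comparisons, against -0.01, 0.10 and 0.05 over all genes. None passed between genotype labels or in the interaction with all 14 arrays. Without the slide 4 pair, Slco2b1 (1.94), Mgst3 (1.63), Pla2g4a (1.545), Ptgr1 (2.53) and Ptgr2 (1.82) passed as higher in cocultured cells labelled knockout. Ggt5 (-3.67) and Cmklr1 (-1.37) passed as lower, where 25% of all genes passed. Slco2b1, Mgst3, Pla2g4a, Ptgr2 and Ggt5 then also passed in the interaction (adjusted p 0.00963 to 0.0478), where 12.1% of all genes did. The coculture comparisons of the 2 labels share no arrays, but they are not independent. Both come from the same fit, which estimates the spread of each gene from all 14 arrays together.

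**Figure D4:**
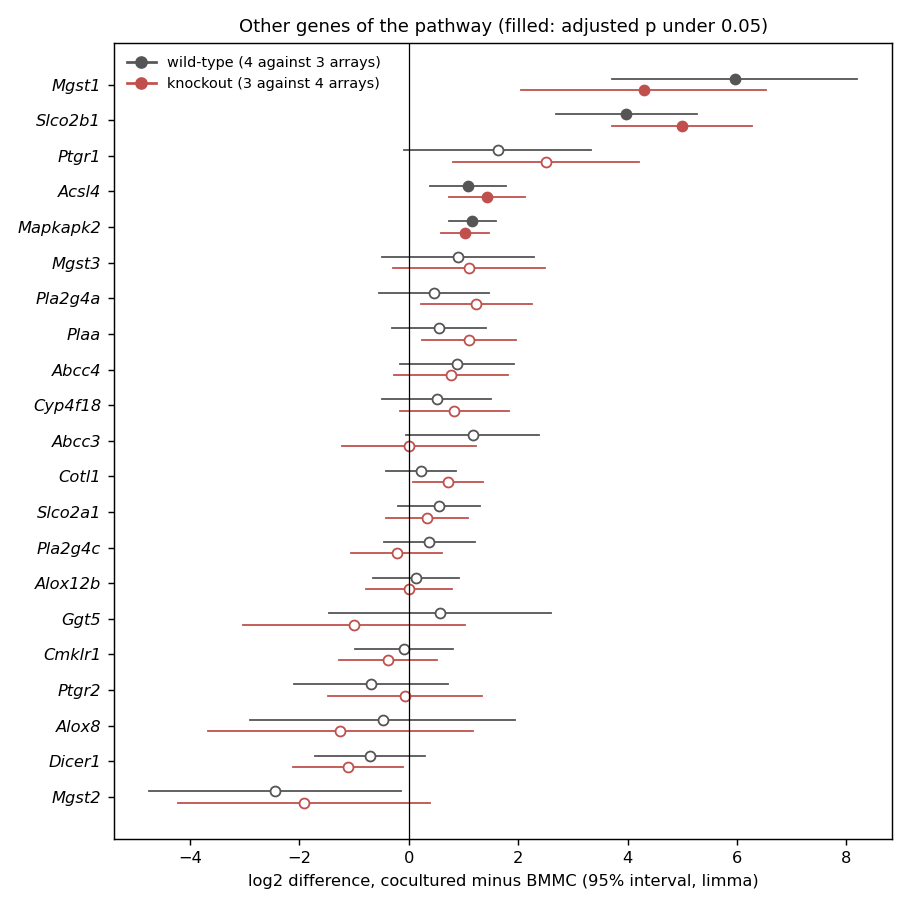
Cocultured minus BMMC difference of 21 other genes of the pathway on the log2 scale, with 95% intervals from limma, in wild-type cells and in cells labelled knockout, ordered by their average. Filled points passed at an adjusted p under 0.05: Mgst1, Slco2b1, Acsl4 and Mapkapk2 under both labels.

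Among genes that supply arachidonic acid, Acsl4, which joins the acid to coenzyme A, rose by 1.09 (SE 0.32, adjusted p = 0.0423) in wild-type cells and 1.43 (SE 0.32, adjusted p = 0.0118) in cells labelled knockout. Its wild-type call ended with 19 of 32 settings, among them without any 1 BMMC array (adjusted p 0.0519 to 0.157), without wild-type cocultured 1, 3 or 4 (0.0953, 0.0728 and 0.0575), without knockout cocultured 1 or 2 (0.0549 and 0.0544) and without the slide 4 pair (0.0556). The call in cells labelled knockout ended without knockout cocultured 1 (adjusted p = 0.054) and with normexp, median scaling and the authors' normalized values (0.144, 0.064 and 0.151). Plaa, a phospholipase A2-activating protein, passed on average only, at 0.82 (SE 0.28, adjusted p = 0.0427), and ended with 19 of 31 settings, the slide 4 pair among them (adjusted p = 0.0862). Leaving out any 1 array of 7 wild-type, except wild-type cocultured 2 and 4, or BMMC 1, 2 or 3 or cocultured 2 or 3 labelled knockout, also ended it (0.0507 to 0.0837). Pla2g4a, the cytosolic phospholipase A2 that releases arachidonic acid, did not pass with all arrays, at 0.46 (adjusted p = 0.601) and 1.24 (adjusted p = 0.0956). In cells labelled knockout it was 1.36 (adjusted p = 0.00699) without the slide 4 pair. It passed there also with array weights (0.00127) and with only the groups compared (0.0141). These settings called 4957, 7288 and 2075 of all 15846 genes.

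Of the partners of 5-lipoxygenase, Mapkapk2, a kinase that phosphorylates it, rose from 2.21 ± 0.23 (SD, n = 3) to 3.37 ± 0.14 (SD, n = 4) in wild-type cells and from 2.31 ± 0.10 (SD, n = 4) to 3.34 ± 0.17 (SD, n = 3) in cells labelled knockout. The groups did not overlap, as for 25.6% of all genes in wild-type cells and 28.5% in cells labelled knockout. The adjusted p values were 0.00241 and 0.00561, the latter call ending with normexp (0.289) and the authors' normalized values. Cotl1 and Dicer1, which bind 5-lipoxygenase, did not pass in either with all arrays. Without the slide 4 pair they passed in cells labelled knockout, at 1.07 (adjusted p = 0.00769) and -1.69 (adjusted p = 0.0117), where 4957 of 15846 genes did.

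Among microsomal glutathione transferases, relatives of Ltc4s, Mgst1 rose by 5.96 (SE 1.03, adjusted p = 0.00256) in wild-type cells and 4.30 (SE 1.03, adjusted p = 0.0165) in cells labelled knockout. Among BMMCs it was measurable on 1 wild-type array of 3 and on 3 of 4 labelled knockout, and after coculture on every array. The sizes of its rise were therefore not fully measured. Over 32 settings they ran from 2.47 to 7.44 in wild-type cells and from 1.48 to 4.645 in cells labelled knockout. The call in cells labelled knockout ended without knockout cocultured 2 (adjusted p = 0.055) and with normexp. With the authors' normalized values both calls ended (0.068 and 0.31). Mgst2, which can also form leukotriene C4, fell on average by 2.18 (SE 0.75, adjusted p = 0.0452), a call that ended without any 1 BMMC array or wild-type cocultured array (adjusted p 0.0504 to 0.096), and with slide as a fixed block, the replicate block, no filter or the authors' normalized values (0.0683 to 0.117). Without the slide 4 pair the fall of Mgst2 was 1.35 (difference -1.35, adjusted p = 0.0489), whereas its call ended without all arrays of slide 4. Mgst3 did not pass with all arrays. In cells labelled knockout it passed at 2.01 (adjusted p = 0.000623) without the slide 4 pair, where 4957 of 15846 genes did.

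Among carriers, Slco2b1, an organic anion transporter, rose by 3.98 (SE 0.59, adjusted p = 0.000929) in wild-type cells, from 1.49 to 2.42 before to 5.43 to 7.50 after coculture. In cells labelled knockout it rose by 4.99 (SE 0.59, adjusted p = 0.000263), from 1.57 to 1.88 before to 5.20 to 7.77 after, and both calls passed with all 32 settings. Abcc3, Abcc4 and Slco2a1 did not pass with all arrays and the probe used for each gene. On average Abcc4 was 0.82 (adjusted p = 0.0878) by that probe. It was 1.15 (0.0202) with the mean of its probes and 1.48 (0.0144) with its dimmest, where 4630 and 4199 of 15846 genes passed. Slco2a1 passed on average with slide as a fixed block (0.0248), where 4820 genes did. All 3 carriers passed on average with array weights (0.0466, 0.0351 and 0.00585), where 7733 genes did. Ptgr1, which breaks down leukotriene B4, rose on average by 2.07 (SE 0.56, adjusted p = 0.0143; 0.0611 with the authors' normalized values). Of the other receptors 1 of 5 was tested, Cmklr1, at -0.09 and -0.38 (adjusted p = 0.927 and 0.584). Of the other lipoxygenases 2 of 6 were tested, Alox8 at -0.48 and -1.25 and Alox12b at 0.13 and 0.01, and neither passed. Fibroblast markers rose in the same comparisons, 9 of 11 tested in wild-type cells and 5 of 11 in cells labelled knockout, and their part in the differences of these genes was not tested.

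The genes whose log2 level followed that of each member most closely over the 14 arrays are given as a description: the arrays share 2 culture states, and many of the 15846 genes follow these. For Abcc1 they were Txnrd1 and Rab5a (Pearson r = 0.981 and 0.98), for Ltb4r1 Syt11 and Zmym6 (0.978 and 0.97) and for Ltb4r2 Rab44 and Sfi1 (both 0.972). Alox5ap was followed by Hnrnpk and Atp6v0e (0.97 and 0.969), Lta4h by Creb3l2 and Pstpip2 (0.964 and 0.959) and Alox5 by Pigbos1 and Wbp1 (0.96 and 0.956). Ltc4s was followed by Mns1 and Wrap53 (0.941 and 0.936). For Cysltr2 they were Xkr6 and Adamtsl4 (0.889 and 0.878).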

How the data were processed

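Per the file headers and the submitters' processing notes, spot intensity values were extracted by the authors in Agilent Feature Extraction 9.5.1.1, and probes carry mm9 positions. Their annotated table of 25193 probes, also intensity values, was used as an alternative only. Its raw columns equal 99.77% of scanner values to within 1 unit, and its normalized columns are those minus 1 constant per array. Of the normalized values 59% to 59.8% per array were below 0, and here values under 1 were set to 1 before log2 was taken.

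Log2 of the processed signal was taken and each array's 75th percentile subtracted. Control spots and 74 to 326 spots per array marked as outliers were left out, and spots of 1 probe were averaged. A probe was kept if at least 3 arrays had it well above background and all 14 had a value, and 380 were dropped for a missing value. Of several probes of a gene, that with the highest mean was used. Probes were named by accession (24844), by symbol or synonym (7855) or by the file (8475). The 4 groups entered 1 fit in limma 3.58.1 (R 4.3.3), with two-sided tests and Benjamini-Hochberg adjustment over all 15846 genes. "Rose", "fell" and "passed" refer to an adjusted p under 0.05. On simulated data with 100 genes each changed by 1 and by 2 log2 units in coculture of wild-type cells, 12% and 55% were called. The simulated noise was normal and independent between arrays, and all other genes were left unchanged. In the data 12.8% of genes passed in that comparison, so the simulated shares do not give its sensitivity.

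Alternatives were normexp background correction, other scalings, the authors' normalized values, other filters and probe choices, slide and replicate blocks, array weights, and each array or slide 4 left out. Same-numbered BMMC arrays of the 2 labels moved together around their group means (r = 0.197, 0.499 and 0.487 across genes). They also shared a slide, so pairing by number and by slide cannot be told apart. Wild-type BMMC 1 and BMMC 4 labelled knockout, of different numbers and slides, had r = 0.357. Cocultured arrays of the same number did not (r = -0.434, -0.149 and -0.547).

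The genes, the lists and the tests were chosen with earlier results of these data known. The text names all 9 members, Pla2g3, pathway genes that passed or, where a role had none, up to 2 with the lowest p, the 2 genes nearest to each member, and defining markers. Pla2g4a, Cotl1, Dicer1, Mgst3, Abcc3, Abcc4, Slco2a1, Ggt5 and Ptgr2 were added after their values were seen.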

Additional observations from a re-analysis of the deposited data

Results flagged for a closer look

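Of 28 groups of 4 arrays checked for a single array far from the others, 2 gave one, and chance alone marks about 1 in 20 groups. In BMMCs labelled knockout, the second Alox5 probe read 4.71 on array 3, where the other 3 arrays read 5.55 to 5.62. In wild-type cocultured cells, a Cysltr1 probe read -6.07 on array 4 against -6.29 to -6.28 on the others, all not well above background.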

How the results depend on the processing

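Of 8 genes tested, the count that passed in coculture of wild-type cells was 4, and it became 2 with normexp, median scaling, no filter on dim probes or the replicate block, 1 with the authors' normalized values, and 2 to 4 with 1 array left out. Over all genes the same settings called 877, 1706, 1408 (of 27765), 1342 and 899 (of 9824). In cells labelled knockout the 4 became 1 with normexp, 0 with the authors' values and 2 with the replicate block; the average of both labels went from 6 to 2 with the authors' values. Between cocultured cells of the 2 labels the 0 became 5 with array weights, 4 without the slide 4 pair and 5 without slide 4, and for the interaction 3, 2 and 3. Of all 15846 genes these settings called 7215, 3955 and 4136 between labels and 3665, 1923 and 1643 for the interaction. The cause was not tested. With the replicate block within each culture state 0 of the 8 genes passed between labels, so it changed no call there; for the coculture differences it could not be fitted, since block and culture state coincide. The median difference of all genes in wild-type coculture was -0.01, -0.20 with median scaling and 0.37 with the authors' values over 9824 genes.

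The sign turned in these differences, none of which had passed. With array weights, without the slide 4 pair and without slide 4, coculture in cells labelled knockout gave 0.29, 0.53 and 0.47 for Alox5 and 0.18, 0.41 and 0.42 for Ltc4s. Between BMMCs of the 2 labels, the authors' values gave 0.36 for Alox5, 0.21 for Alox5ap, 0.14 for Lta4h and 0.026 for Ltb4r1. There Alox5 was 0.13 with quantile normalization, 0.007 with slide as a fixed block and 0.031 with the dimmest probe. Abcc1 was -0.063 and -0.019 with slide as a fixed and a random block, -0.082 with the replicate block within culture states, -0.014 with array weights and -0.082 without slide 4. Between cocultured cells of the 2 labels, normexp gave -0.40 for Alox5, -0.18 for Alox5ap, -0.31 for Lta4h, -0.24 for Ltb4r1, 0.48 for Ltb4r2 and 0.45 for Cysltr2. Quantile normalization gave -0.11 for Alox5, -0.026 for Ltb4r1 and 0.21 for Cysltr2, and the authors' values -0.25 for Alox5, -0.016 for Alox5ap and -0.21 for Lta4h. Slide as a fixed block gave -0.012 for Alox5 and 0.057 for Cysltr2, at least 2 values per group -0.14 for Alox5, and a percentile over probes above background on all arrays -0.088 for Ltb4r1. Cysltr2 was 0.22 with median scaling, 0.26 with array weights, and 0.51 both without the slide 4 pair and without slide 4. For the interaction, normexp gave -0.33 for Alox5, -0.067 for Lta4h, -0.037 for Abcc1, 0.71 for Ltb4r2 and 0.38 for Cysltr2. The authors' values gave -0.61 for Alox5, -0.22 for Alox5ap, -0.35 for Lta4h and -0.23 for Abcc1, and Alox5 was -0.24 with quantile normalization and -0.019 with slide as a fixed block.

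With 1 array left out, coculture in cells labelled knockout ran from -0.54 to 0.53 for Alox5 and from -0.98 to 0.41 for Ltc4s, and Alox5 on average from -0.52 to 0.015. Abcc1 between BMMCs ran from -0.082 to 0.055. Between cocultured cells Alox5 ran from -0.20 to 0.86, Lta4h from -0.12 to 0.49, Ltb4r1 from -0.58 to 1.05 and Cysltr2 from -0.42 to 0.40, and the interaction from -0.040 to 1.03 for Alox5 and from -0.13 to 1.51 for Ltb4r1. With the authors' normalized values, those under 1 were set to 1, and Ltb4r2 and Cysltr2 were at that floor on every array. They therefore have no value in that setting. Settings with at least 2 values per group and with the dimmest probe were chosen after seeing the data. Signals near background limit Ltb4r2, Cysltr2 and Cysltr1.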
